A study of Caenorhabditis elegans with 2 samples.

Results

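The regions described here are the peaks of a worm transcription factor ChIP-seq experiment that ranked just under the deposited reporting threshold. Chromatin was immunoprecipitated with an antibody against GFP from whole Caenorhabditis elegans L4 larvae, 48 hours of age, that carried T26A8.4 fused to EGFP. The strain, OP692, carries the integrated transgene wgIs692, with T26A8.4::TY1 EGFP 3xFLAG and an unc-119(+) rescue copy, in the unc-119 (tm4063) mutant background. The worms were synchronised by bleaching and starvation at the L1 stage, and chromatin was sheared by sonication. The 2 libraries form 1 group, and the labels call them separate biological replicates. The profile is therefore that of 1 strain with a tagged, integrated transgene copy in all tissues of the animal together, so strong enrichment in few cells and weak enrichment in many cannot be told apart. The labels name a possible control experiment, which was not used here.

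The members were chosen by their score in a ranked peak list built from both replicates jointly, which contains every line of the matching thresholded list. They are the 2108 of its 68113 lines (3.09%) with a score of at least 540 and under 830, and they are called near-threshold lines below. They were set against the 3024 lines at 830 or above and the 62981 lines under 540. The score is an integer form of the IDR, the irreproducible discovery rate, which is low for peaks that rank consistently high in both inputs. No label ties these inputs to the 2 libraries, so the score is not read here as agreement between the replicates. The near-threshold scores correspond to a −log10 IDR of 1.3 to 2.0. Score, IDR and peak signal chose the members or are tied to the choice, so they are given as a description with no test. Locations, gene classes and sequence were not used in the choice.

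T26A8.4 is annotated in RefSeq as a protein with a C3H1-type domain, a zinc finger fold that in many other proteins binds RNA. In ChIP-seq, a peak marks DNA that was recovered in excess with the tagged protein, and the summit is the position of highest enrichment inside it. Regulatory DNA in worms lies mostly just upstream of genes, where open chromatin is also recovered readily in many experiments. Transfer RNA genes are read by RNA polymerase III from internal elements called the A box and the B box. Many worm messenger RNAs receive a spliced leader, so their annotated start can lie downstream of where transcription begins.

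Sequences of a few near-threshold peaks show the motifs on which the comparisons below turn. Each is centred on the summit, is read 5′ to 3′ on the plus strand of the RefSeq WBcel235 sequence (ce11) and carries the motif in capitals. The first 6 reach 50 bp to either side of the summit. They are the 2 highest-signal members of each motif with the motif in that span on chromosomes II to V and X, of those that overlap no interval at 830 or above. The first 2 hold the GA repeat GAGAGAGA or its reverse complement, the next 2 the octamer CTGCGTCT, and the next 2 the GATA element TGATAA. The following 2, which reach 100 bp to either side, come from tRNA genes and hold the B box GTTCGANTC. The last, of the same length, lies between the small heat shock genes hsp-16.2 and hsp-16.41 and shows the heat shock element GAANNTTC.
Downstream of nhr-3, between genes, chrX:14561823-14561923: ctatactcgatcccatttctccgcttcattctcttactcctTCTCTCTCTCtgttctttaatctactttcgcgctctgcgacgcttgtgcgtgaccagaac
Intron of nhr-19, chrII:9601308-9601408: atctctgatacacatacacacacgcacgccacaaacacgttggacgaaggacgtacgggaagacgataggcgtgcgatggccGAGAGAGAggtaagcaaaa
Intron of F13D12.8, chrII:11731569-11731669: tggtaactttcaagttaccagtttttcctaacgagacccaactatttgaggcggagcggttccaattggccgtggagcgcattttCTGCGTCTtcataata
Intron of myrf-1, chrII:10501734-10501834: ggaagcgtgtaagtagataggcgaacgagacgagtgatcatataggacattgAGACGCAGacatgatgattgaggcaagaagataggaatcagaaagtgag
Promoter of T19C4.24, chrV:11147936-11148036: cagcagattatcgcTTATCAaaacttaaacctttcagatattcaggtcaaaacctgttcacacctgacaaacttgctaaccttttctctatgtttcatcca
Coding exon of best-7, chrIV:11226673-11226773: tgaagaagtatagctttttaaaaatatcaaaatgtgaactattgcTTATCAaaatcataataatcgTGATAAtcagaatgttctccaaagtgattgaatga
tRNA-Gly gene R04E5.t6, chrX:8796806-8797006: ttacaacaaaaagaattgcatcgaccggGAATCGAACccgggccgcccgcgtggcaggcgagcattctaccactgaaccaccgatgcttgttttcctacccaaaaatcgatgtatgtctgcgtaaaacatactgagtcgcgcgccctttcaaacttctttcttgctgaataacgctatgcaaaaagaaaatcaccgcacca
tRNA-Leu gene B0285.t1, chrIII:4362432-4362632: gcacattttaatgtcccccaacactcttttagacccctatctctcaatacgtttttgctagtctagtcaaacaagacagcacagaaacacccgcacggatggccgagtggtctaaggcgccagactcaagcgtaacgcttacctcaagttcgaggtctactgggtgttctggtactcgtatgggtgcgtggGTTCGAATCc
Between hsp-16.2 and hsp-16.41, chrV:1805050-1805250: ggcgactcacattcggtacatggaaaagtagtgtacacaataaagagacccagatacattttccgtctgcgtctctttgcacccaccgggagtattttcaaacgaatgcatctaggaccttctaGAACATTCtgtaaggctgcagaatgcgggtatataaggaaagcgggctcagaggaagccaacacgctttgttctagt

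The near-threshold lines lay between the stronger and the weaker lines in their share of promoter summits. Promoter windows, which covered 1000 bp before and 200 bp after the start of each protein-coding gene, held 542 of the 2108 near-threshold summits (25.7%, 95% Wilson interval 23.9 to 27.6). They held 40.4% of the summits at 830 or above and 19.4% of those under 540, and they cover 21.5% of the genome. The near-threshold promoter share was lower than that at 830 or above, with an odds ratio (here and below, near-threshold over the other range) of 0.51 (0.452 to 0.576, two-sided Fisher's exact test, adjusted p = 2.84e-27). It was higher than the share under 540, with an odds ratio of 1.44 (1.3 to 1.59, exact adjusted p = 1.43e-11). Lines of one library pair are not independent replicates, so these tests and intervals cover counting error over lines only. The number of reads behind a peak is unknown.

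Coding exons, with promoters the most frequent locations near the threshold, held 559 of 2108 summits (26.5%), against 10.5% at 830 or above and 29.0% under 540. The odds ratio was 3.08 (2.65 to 3.59) against the lines at 830 or above (Fisher's exact test, adjusted p = 4.6e-49) and 0.883 (0.801 to 0.975) against those under 540 (adjusted p = 0.0212). The second difference was not detected in the lower part of the score range alone (odds ratio 0.976, exact adjusted p = 0.785). It was also lost with promoter windows of 2000 bp (0.927, exact adjusted p = 0.202). Introns held 23.5% of near-threshold summits, 16% at 830 or above and 30.5% under 540, and both differences passed. Intergenic sequence held 16.7%, 19.8% and 13.7% in the same order, and both differences passed (odds ratios 0.807 and 1.26). The first was lost in the lists of replicate 1 (0.837, exact adjusted p = 0.0738) and replicate 2 (0.935, 0.523) alone and in the upper part of the score range (0.827, 0.097). The second was lost with promoter windows of 2000 bp (1.16, exact adjusted p = 0.0758). Noncoding genes outside promoters held 69 near-threshold summits (3.27%), against 9.95% at 830 or above (odds ratio 0.306, exact adjusted p = 1.01e-20) and 3.46% under 540 (odds ratio 0.946, interval 0.741 to 1.21, adjusted p = 0.742). The last odds ratio was 1.32 in the list of replicate 2 alone (exact adjusted p = 0.0485). Untranslated regions at the 5′ end held 1.33% and those at the 3′ end 3.04% of near-threshold summits, and neither share differed detectably from that of the other ranges.

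**Figure D1:**
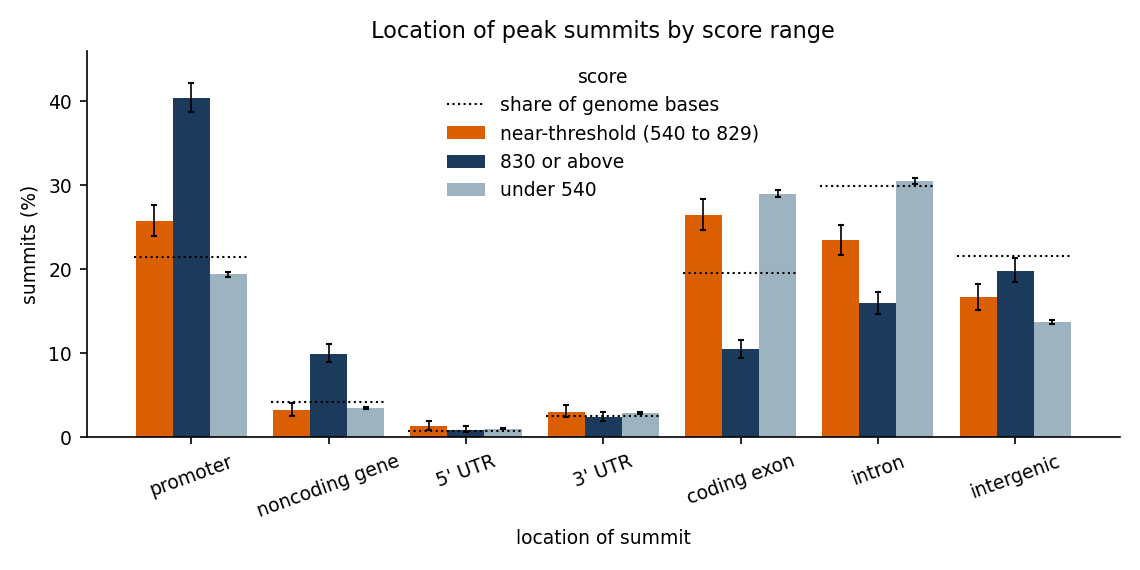
Share of summits (%) in each annotated location for near-threshold lines, lines at 830 or above and lines under 540. Bars are shares, error bars are 95% Wilson intervals and dotted lines are the share of genome bases. The near-threshold promoter share (25.7%) lies between 40.4% at 830 or above and 19.4% under 540, and the near-threshold coding exon share (26.5%) lies close to the 29.0% under 540.

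The promoter share was also taken by score bin, with the near-threshold range split at its middle into a lower and an upper part. It was higher in each bin from 400 upwards than in the bin before it, without a test of each step. It was 21.6% for scores of 400 to 539, 24.1% (21.8 to 26.5) in the lower part of the near-threshold range, 28.1% (25.2 to 31.2) in its upper part, 34.9% for 830 to 999 and 42.2% at 1000. The intervals of the 2 near-threshold parts overlap. Coding exons held 30.8%, 28.5%, 23.6%, 16.6% and 8.53% of summits in the same bins. No step at 540 or at 830 stands apart from the steps beside it in either location. Among members, a higher score in the other joint ranked list went with a higher promoter share, at 31.2% of the 199 members that scored 830 or above there, 26.9% of 803 in the near-threshold range and 23.9% of 1089 under 540.

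**Figure D2:**
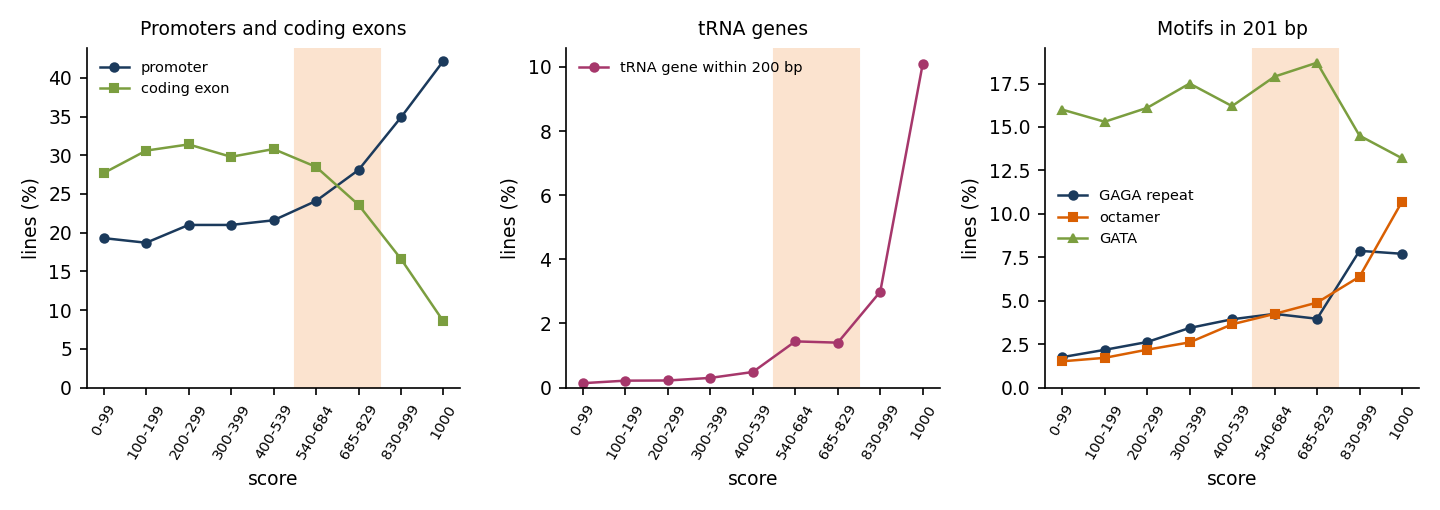
Share of ranked lines (%) by score bin, with the near-threshold bins shaded. Left, summits in promoter windows and in coding exons, which cross in the shaded bins. Middle, summits within 200 bp of a tRNA gene, at 1.44% and 1.4% in the shaded bins and 10.1% at a score of 1000. Right, windows of 100 bp to either side of the summit with the GA repeat, the octamer or the GATA element, the last of which is highest in the upper shaded bin, at 18.7%.

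Within promoters, near-threshold summits were spread more widely around the annotated start than the strongest ones. The median position was −194 bp (quartiles −584.8 and −11) for near-threshold summits, −212 bp (−437 and −72) for summits at 830 or above and −352 bp for a sample of every 10th summit under 540. Within 200 bp upstream of the start lay 26.2% of near-threshold promoter summits, against 33.1% at 830 or above and 18.2% under 540. Downstream of the start lay 24.2%, against 14.6% and 20.3%. These positions were not tested.

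**Figure D3:**
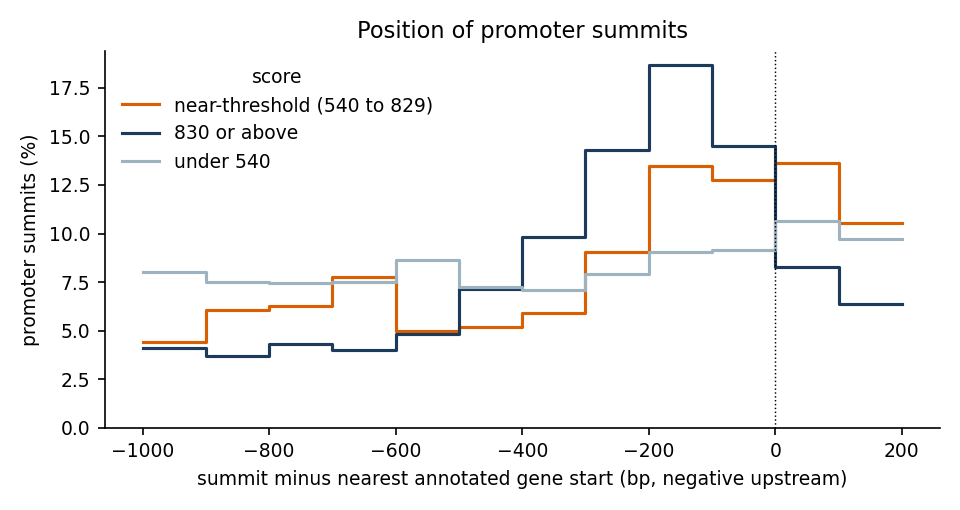
Distribution of promoter summits around the nearest annotated gene start (summit position minus start in bp, bins of 100 bp, % of the promoter summits of each score range). The near-threshold curve has no single sharp maximum, with 26.2% of its summits within 200 bp upstream and 24.2% downstream, while the curve at 830 or above peaks upstream of the start.

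The X chromosome held 378 near-threshold summits (17.9%, 16.4 to 19.6), against 18.5% at 830 or above and 14.3% under 540, and X makes up 17.7% of the genome. The odds ratio was 0.966 (0.836 to 1.12, Fisher's exact test, adjusted p = 0.85) against lines at 830 or above and 1.31 (1.17 to 1.47, adjusted p = 6.62e-05) against lines under 540. In the list of replicate 1 alone the second odds ratio was 1.13 (exact adjusted p = 0.193). Chromosome I held 15.2% of near-threshold summits, 15.7% at 830 or above and 18.2% under 540, with an odds ratio of 0.808 against the last (exact adjusted p = 0.00268). That call was lost in the other joint list, where the odds ratio was 0.944 (exact adjusted p = 0.617), in the list of replicate 1 alone (0.917, 0.359) and in each part of the score range. No other chromosome passed in either comparison. On X, 20.9% of near-threshold summits were in promoters and 25.9% between genes, against 26.8% and 14.6% on the autosomes. The other ranges differed in the same direction. At 830 or above the shares were 34.2% and 28.5% on X, against 41.8% and 17.9% on the autosomes. Under 540 they were 15.6% and 16.5%, against 20.1% and 13.3%.

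A tRNA, snoRNA or snRNA gene lay within 200 bp of 43 near-threshold summits (2.04%), against 13.0% at 830 or above (odds ratio 0.139, 0.101 to 0.192, Fisher's exact test, adjusted p = 3.77e-50), 0.514% under 540 (4.03, 2.92 to 5.55, adjusted p = 1.31e-12) and 0.519% of the genome. Of these summits, most lay near a tRNA gene. A tRNA gene lay within 200 bp of 30 near-threshold summits (1.42%, 0.999 to 2.02), against 8.4% at 830 or above, 0.183% under 540 and 0.272% of the genome. The odds ratio was 0.157 (0.107 to 0.231, Fisher's exact test, adjusted p = 1.67e-30) against 830 or above and 7.89 (5.27 to 11.8, adjusted p = 1.57e-15) against under 540. Of the 612 tRNA genes, 30 (4.9%) had a near-threshold summit within that distance and 284 (46.4%) had one at 830 or above. X held 12 of the 30 near-threshold tRNA summits. These were 3.17% of the near-threshold lines on X and 1.04% of those on autosomes, against 18.6% and 6.08% at 830 or above. Copies of a tRNA gene can be nearly identical, so reads may have been divided among them and the assignment to 1 copy is uncertain.

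The near-threshold tRNA summits with the highest signal and no stronger summit beside them were at the tRNA-Gly gene R04E5.t6, printed above, and the tRNA-Asp gene Y54G2A.t5. R04E5.t6 lies at 8796822 to 8796892 of X on the minus strand, inside an intron of R04E5.7, and its summit was at −14 bp from its start. Its signal was 51.6 in the list of replicate 1 and 41.0 in that of replicate 2, with scores of 575 and 68, and 108 in the joint list. Y54G2A.t5 lies at 2801151 to 2801222 of chromosome IV on the minus strand, and its summit, at −7 bp from its start, was in the promoter window of Y54G2A.44. Its score was 289 in the list of replicate 1 and 887 in that of replicate 2, and its joint signal was 108. At both genes the own-list scores differed between the replicates, although the 2 signals at Y54G2A.t5 were nearly equal. In the other joint list the scores were high, at 891 for R04E5.t6 and 1000 for Y54G2A.t5.

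Small nucleolar RNA genes, whose products guide chemical modification of other RNAs, lay near 10 near-threshold summits (0.474%), against 2.98% at 830 or above (odds ratio 0.155, Fisher's exact test, adjusted p = 1.54e-11) and 0.272% under 540 (odds ratio 1.75, interval 0.924 to 3.32, adjusted p = 0.112). The last odds ratio passed in the list of replicate 2 alone (3.06, exact adjusted p = 0.000907) and was 0.937 in the other joint list and 0.308 with the summit inside the gene, without passing. Of 346 snoRNA genes, 10 (2.89%) had a near-threshold summit and 84 (24.3%) one at 830 or above. The strongest without a higher-scoring neighbour were T24H7.6 and ZK484.11. The summit of ZK484.11 lay past the end of the gene, in the promoter window of oaz-1. Small nuclear RNA genes, of the spliceosome and of trans-splicing, lay near 3 near-threshold summits (0.142%), against 1.65% at 830 or above (odds ratio 0.0848, exact adjusted p = 1.23e-08) and 0.0603% under 540 (2.36, interval 0.728 to 7.65, adjusted p = 0.163). The last odds ratio passed in the lists of replicate 1 (4.64, exact adjusted p = 0.00764) and replicate 2 (4.14, 0.0248) alone and in the other joint list (3.46, 0.0441). Of 129 snRNA genes, 4 (3.1%) had a near-threshold summit and 39 (30.2%) one at 830 or above. The named pair were Y69A2AR.36 and T27E4.12. The summit of T27E4.12 lay past the end of the gene, in the promoter window of T27E4.1. MicroRNA genes lay near 8 near-threshold summits (0.38%), 0.463% at 830 or above (odds ratio 0.819, interval 0.343 to 1.96, exact adjusted p = 0.829) and 0.16% under 540 (2.37, adjusted p = 0.0365). That last odds ratio was 0.996 when the summit had to lie inside the gene, and the call was lost in the list of replicate 2 alone (1.88, exact adjusted p = 0.223). The call was also lost in the lower part of the score range (1.5, exact adjusted p = 0.459). Without lines of 540 or above that had a stronger such line within 500 bp, it did not pass either (2.04, 0.162). Of 261 miRNA genes, 10 (3.83%) had a near-threshold summit and 13 (4.98%) one at 830 or above. They included cel-mir-2, with a summit at −164 bp from its start, and cel-mir-60.

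Of the 14 motifs sought within 100 bp of each summit, on both strands, 8 differed in share between near-threshold windows and windows at 830 or above, and 12 between near-threshold windows and windows under 540. Most lay between the 2 other ranges. The motifs were chosen with earlier results of these data known, so the p-values here and below do not come from tests set up without sight of the data. The octamer CTGCGTCT was in 95 near-threshold windows (4.51%), against 9.62% at 830 or above (odds ratio 0.443, Fisher's exact test, adjusted p = 2.36e-11), 1.74% under 540 (2.67, adjusted p = 4.8e-14) and 1.06% of all genome windows. The GA repeat GAGAGAGA was in 87 windows (4.13%), against 7.74% (0.513, exact adjusted p = 2.61e-07), 2.08% (2.03, adjusted p = 4.76e-08) and 1.32%, in the same order. In the lists of replicates 1 and 2 alone, the first GA repeat odds ratio was 0.862 and 0.831 and did not pass (exact adjusted p = 0.38 and 0.222). The TG repeat TGTGTGTG was in 3.94%, against 5.59% (0.692, exact adjusted p = 0.00989), 1.7% (2.37, 1.67e-10) and 1.13%. Its first odds ratio was 0.869 and 0.972 in those 2 lists and did not pass (exact adjusted p = 0.506 and 0.918). Nor did it pass in the lower part of the score range (0.793, exact adjusted p = 0.186). The B box was in 22 windows (1.04%), against 4.3% at 830 or above (0.235, exact adjusted p = 1.29e-11), 0.707% under 540 (1.48, interval 0.964 to 2.28, adjusted p = 0.106) and 0.567% of genome windows. The second B box odds ratio passed in the lists of replicate 1 (2.56, exact adjusted p = 6.8e-05) and replicate 2 (1.96, 0.00987) alone and in the other joint list (1.66, 0.0325). Of the windows with a B box, 45.5% near the threshold and 81.5% at 830 or above lay at a tRNA gene.

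The GATA element TGATAA, to which intestinal GATA factors such as ELT-2 bind, was more frequent near the threshold than in both other ranges, and the second of these differences rests on the settings named below. It was in 384 near-threshold windows (18.2%, 16.6 to 19.9), against 13.6% at 830 or above (odds ratio 1.42, 1.22 to 1.65, Fisher's exact test, adjusted p = 1.77e-05) and 15.9% under 540 (1.18, 1.05 to 1.32, adjusted p = 0.00849). Its share of all genome windows was 17.9%, close to the near-threshold share. In promoter summits alone it was in 18.3% of near-threshold windows, 11.8% at 830 or above (1.67, exact adjusted p = 0.00393) and 17.8% under 540 (1.03, adjusted p = 0.902). The difference from the lines under 540 was also lost in the list of replicate 1 alone (1.03, exact adjusted p = 0.715), within 50 bp of the summit (1.13, 0.147) and in the upper (1.22, 0.0513) and lower (1.15, 0.0985) parts of the score range. The difference from the lines at 830 or above passed under all 10 alternatives, with odds ratios of 1.35 to 1.49.

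The word TTTTCAG, sought as a spliced leader acceptor, was in 13.7% of near-threshold windows, against 10.9% at 830 or above (odds ratio 1.3, Fisher's exact test, adjusted p = 0.00375) and 18.5% under 540 (0.699, adjusted p = 4.04e-08). The first difference was lost in the list of replicate 2 alone (1.19, exact adjusted p = 0.133) and in the upper part of the score range (1.22, 0.147). A match does not mark a spliced leader site by itself. Near the threshold the word was in 17.2% of promoter, 14.7% of coding exon and 13.7% of intron windows. The GC box GGGCGG and the word CCCGCC, which resembles E2F sites, were in 7.12% and 6.31% of near-threshold windows, 9.59% and 9.16% at 830 or above and 4.45% and 4.53% under 540, and all 4 differences passed. In the upper part of the score range alone, the GC box no longer passed against 830 or above (0.772, exact adjusted p = 0.116), nor the E2F-like word against under 540 (1.33, 0.1). The E-box CACGTG was in 6.36%, 7.61% and 4.72%, of which the difference from under 540 passed. That call was lost in the list of replicate 1 alone (1.26, exact adjusted p = 0.061). The heat shock element, the TATA box TATAAA, the cell cycle element TTTGAA and the run TTTTTTTT were less frequent near the threshold than under 540, and none of these 4 differed detectably from windows at 830 or above (adjusted p from 0.0506 for the run TTTTTTTT to 0.566 for the TATA box). The TATA box difference from under 540 was lost in the list of replicate 2 alone (0.892, exact adjusted p = 0.165). ATTTGCAT passed in neither comparison.

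Base composition moved with these shares. Near-threshold windows had a median GC content of 42.3%, against 43.8% at 830 or above and 39.8% under 540. Flanks 500 to 700 bp away had 36%, 36.8% and 37%, and the window was richer in GC than its flanks in 75.6%, 76% and 63.3% of lines. Near-threshold windows with the octamer had a median of 45.8% and those with the GA repeat 44.8%, against 41.8% without either of them taken singly, while windows with the GATA element had 39.3%, against 42.8% without. The part of GC content in the motif differences was not tested. Within promoter summits the octamer difference stood in both comparisons (5.35% near the threshold, 11.0% at 830 or above, 2.69% under 540), and the GA repeat difference passed in neither (odds ratios 0.596 and 1.52, Fisher's exact test, adjusted p = 0.0989 and 0.159).

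At the level of genes, 584 of 19973 protein-coding genes (2.92%) had a near-threshold summit in the promoter window, and 540 (2.7%) had one there and none at 830 or above. A summit at 830 or above was in the window of 1411 genes (7.06%), and one under 540 in that of 7756 (38.8%). A near-threshold summit in a coding exon was found in 500 genes (2.5%) and one at 830 or above in 278 (1.39%). Lists of 29 gene families were counted against these shares as a description with no test. Neighbouring genes with opposed starts share a summit, so a list can be credited with a peak of its neighbour.

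Of 81 cytosolic ribosomal protein genes, 6 (7.41%, 3.44 to 15.2) had a near-threshold promoter summit and 47 (58.0%) one at 830 or above. Those named by the rule were rps-6, for a small subunit protein, with a summit at −278 bp shared with usp-3, and rpl-39, for a large subunit protein, with a summit at −268 bp shared with rps-30. The signal at rps-6 was 46.9 in replicate 1 and 53.9 in replicate 2 (own-list scores 543 and 738), and 102 in the joint list. At rpl-39 it was 67.5 and 41.6 (scores 281 and 353), and 96.1 jointly. Of 41 translation factor genes, 4 (9.76%) and 12 (29.3%) had a summit in the 2 ranges. The named near-threshold members were eif-2gamma, for an initiation factor subunit, and erfa-1, for the release factor that ends translation. The nearest start to the summit of eif-2gamma was that of tbca-1, and for erfa-1 that of gad-1. Mitochondrial ribosomal proteins gave 4 of 70 (5.71%, 2.24 to 13.8) and 12 of 70, with mrpl-48 and mrps-17 named. Oxidative phosphorylation gave 1 of 44 (2.27%, 0.402 to 11.8), nuo-1 of complex I, and 15 of 44, and the nearest start to the summit of nuo-1 was that of rpl-36.A, a ribosomal protein gene.

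Over all genes, the shares near the threshold and at 830 or above were 2.92% and 7.06%. The proteasome list had 4 of 33 (12.1%, 4.82 to 27.3) near the threshold and 6 of 33 (18.2%) at 830 or above. Its named members were rpt-3, an ATPase of the regulatory particle, and rpn-9, a lid subunit. Cell cycle and replication genes gave 7 of 59 (11.9%, 5.87 to 22.5) and 9 of 59. The named members were wee-1.1, a kinase that restrains mitotic entry, and cdk-9, which acts in transcript elongation rather than in the cell cycle. Histones gave 7 of 81 (8.64%, 4.25 to 16.8) and 11 of 81. The adjacent genes his-3 and his-4, for H2A and H2B, shared 1 summit with a signal of 21.3 in replicate 1 and 70.2 in replicate 2, at own-list scores of 93 and 1000. Splicing genes gave 3 of 39 (7.69%, 2.65 to 20.3) and 8 of 39 (20.5%). Named were sftb-1, for an SF3B subunit of the U2 particle, with a summit nearer the start of R10E4.1, and snr-6, for an Sm protein. Decay factors gave 3 of 32 (9.38%, 3.24 to 24.2) and 9 of 32 (28.1%), with lsm-5 and the exosome gene exos-4.1, whose summit was nearest the start of dli-1. Chromatin genes gave 3 of 72 (4.17%, 1.43 to 11.5) and 15 of 72 (20.8%), with the histone methyltransferase genes set-2 and set-25. Aminoacyl-tRNA synthetases gave 2 of 31 (6.45%, 1.79 to 20.7) in both ranges, iars-2 and tars-1 near the threshold. The nearest start to the summit of iars-2 was that of C25A1.20.

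Heat shock and chaperone genes had 4 of 60 (6.67%, 2.62 to 15.9) near the threshold and 14 of 60 (23.3%) at 830 or above. Over all genes these shares were 2.92% and 7.06%. The divergent small heat shock genes hsp-16.2 and hsp-16.41 shared a summit at −193 bp and −28 bp from their starts, in the sequence printed above, which holds a heat shock element and also the octamer CTGCGTCT. The signal was 66.4 in replicate 1 and 18.6 in replicate 2, and the own-list scores were 957 and 60. The joint score was 814 and the score in the other joint list was 88. The 2 replicates' own lists therefore scored this region far apart.

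Of all genes, 2.92% had a promoter summit near the threshold and 7.06% one at 830 or above. Chemoreceptor genes had 7 of 1310 (0.534%, 0.259 to 1.1) near the threshold and 10 of 1310 (0.763%) at 830 or above, with srg-14 and srv-1 named. F-box genes had 4 of 322 (1.24%) in both ranges, with fbxa-108 and fbxa-59 named. Nuclear hormone receptors had 4 of 269 (1.49%) and 17 of 269 (6.32%), with nhr-64 and nhr-58 named. Detoxification genes had 3 of 215 (1.4%) and 7 of 215 (3.26%), with the cytochrome P450 gene cyp-14A4 and the glucuronosyltransferase gene ugt-13. Innate immunity genes had 7 of 304 (2.3%) and 8 of 304 (2.63%), with clec-53 and spp-14. Neuropeptides had 3 of 145 (2.07%) in both ranges, with nlp-30, for an epidermal antimicrobial peptide, and nlp-12, for a cholecystokinin-like peptide. Homeobox genes had 3 of 93 in both ranges, with ceh-2 and ceh-5. Germline and meiosis genes had 0 of 70 near the threshold (upper Wilson limit 5.2%) and 4 of 70 at 830 or above. Sperm genes had 0 of 74 (upper limit 4.93%) and 2 of 74. DREAM and Rb genes, which repress cell cycle genes, had 0 of 9 (upper limit 29.9%) and 5 of 9. All of these upper limits lie above the 2.92% of all genes.

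Cuticle collagens had 10 of 176 promoters (5.68%, 3.12 to 10.1) near the threshold and 9 of 176 (5.11%) at 830 or above, against 2.92% and 7.06% of all genes. The named collagens were col-167, with signals of 30.2 and 69.0 in replicates 1 and 2 (scores 67 and 964), and col-97, with 33.6 and 50.2 (scores 61 and 931). Both scored far higher in replicate 2. In coding exons, collagens had a near-threshold summit in 15 of 176 genes (8.52%) and one at 830 or above in 28 of 176 (15.9%), against 2.5% and 1.39% of all genes. Intestinal genes gave 2 of 23 (8.7%, 2.42 to 26.8) near the threshold and 1 of 23 at 830 or above, with the proteases cpr-6 and asp-1. Neuronal genes gave 2 of 50 (4.0%, 1.1 to 13.5) and 1 of 50, with the neuropeptide convertase egl-3 and the pan-neuronal rgef-1. Muscle genes gave 1 of 38, the alpha-actinin gene atn-1, and 3 of 38. Actin and tubulin genes gave 1 of 21, act-1, and 5 of 21. Molting and epidermal genes gave 1 of 34 in promoters, mlt-7, a peroxidase of the cuticle, and 0 of 34 at 830 or above, but 6 of 34 and 3 of 34 in coding exons. Heterochronic genes, which time larval stages, gave 2 of 20 promoters near the threshold, among them that of the Argonaute gene alg-1, and 8 of 20 at 830 or above, with 5 of 20 and 1 of 20 in coding exons. Short lists of defining markers held no gene with a promoter summit in either range. They covered intestine (8 genes), body wall muscle (3), neurons (3), germline (3) and hypodermis (2). These are too few genes to set against the shares of 2.92% and 7.06% over all genes.

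**Figure D4:**
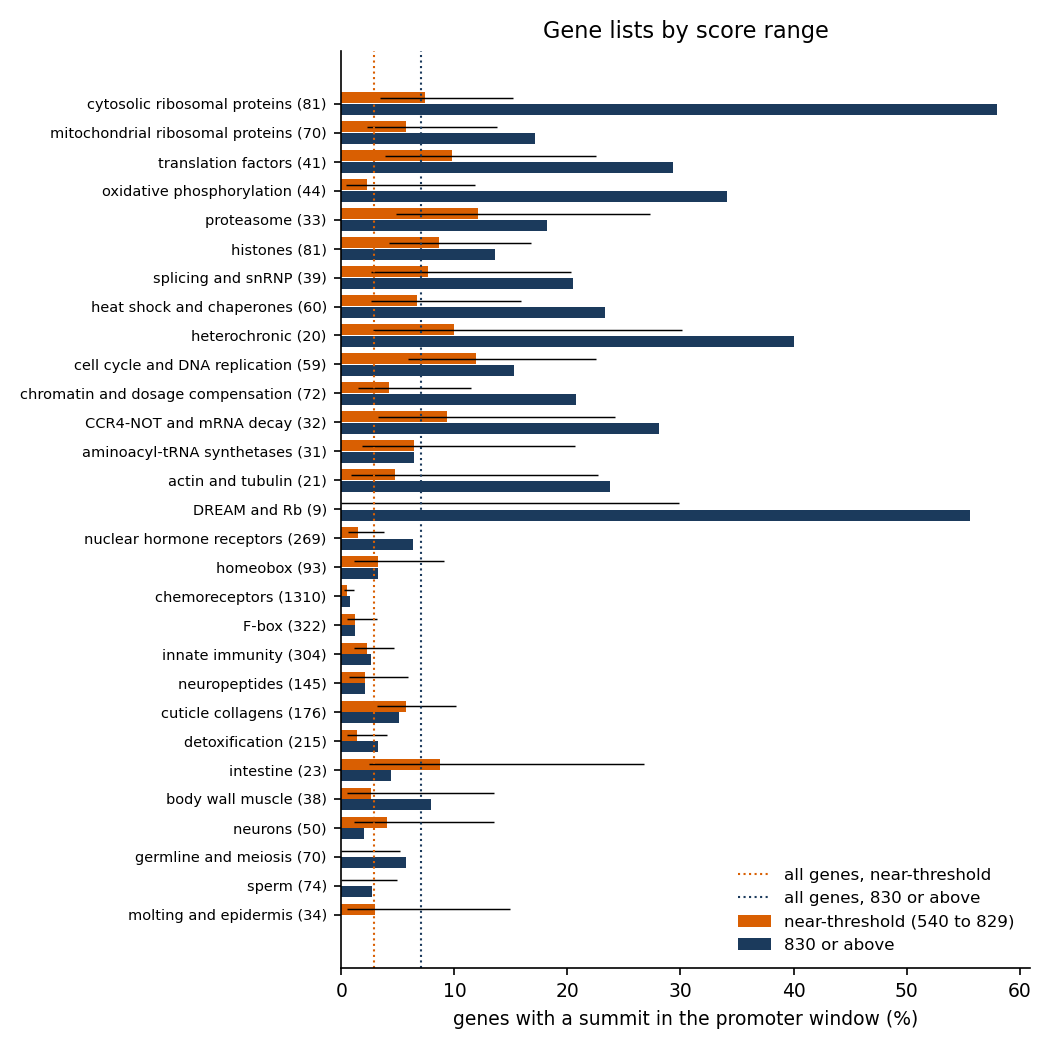
Share of genes (%) in each list (number of genes in brackets) with a promoter summit near the threshold and at 830 or above. Horizontal lines are 95% Wilson intervals of the near-threshold share and dotted lines are the shares of all genes, 2.92% and 7.06%. Cytosolic ribosomal protein genes stand at 7.41% and 58.0%, and chemoreceptors at 0.534% and 0.763%.

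The near-threshold regions were mostly present in both replicates' own ranked lists, with own-list scores that were mostly under 540. An interval with 50% overlap was found in the ranked list of replicate 1 for 2038 of 2108 members (96.7%) and in that of replicate 2 for 2017 (95.7%). The median own score was 296.5 and 289, against 923 and 1000 for the lines at 830 or above. Both own scores were under 540 for 1171 members (55.6%), against 198 lines at 830 or above (6.55%). Both were at 540 or more for 53 members (2.51%), against 1762 lines (58.3%). One replicate's list gave 830 or above and the other under 540 for 140 of 2108 members, against 546 of 3024 lines at 830 or above. The thresholded list of at least 1 replicate was overlapped by few: 12 members overlapped both, 72 replicate 1 only, 99 replicate 2 only and 1925 (91.3%) neither, against 25.5% of lines at 830 or above in neither. The conservative thresholded list overlapped 228 members (10.8%), against 80.9% of lines at 830 or above. Since the joint score was computed from these libraries, these values describe the choice of members.

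**Figure D5:**
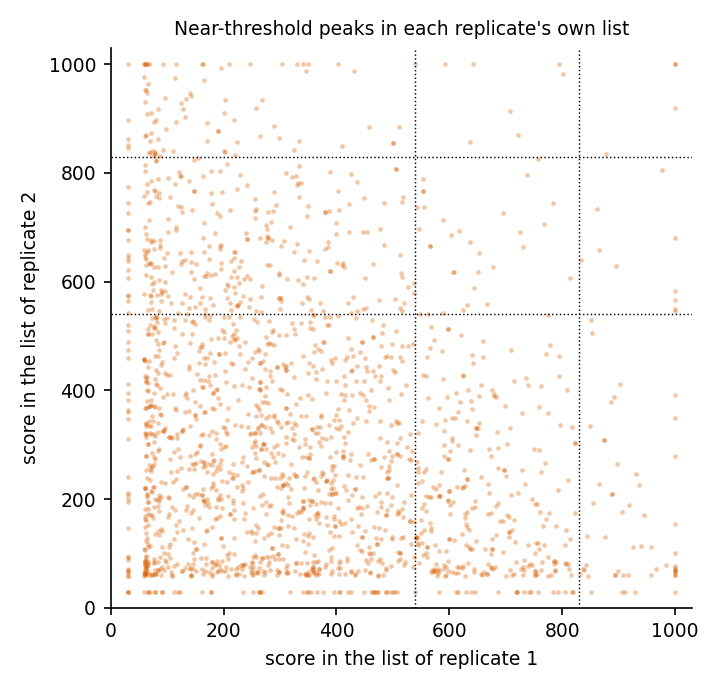
Score of each near-threshold peak in the replicates' own ranked lists, for the 1957 members matched in both. Dotted lines mark 540 and 830. Most points lie at the lower left, with 1171 under 540 in both lists, and 53 lie at 540 or more in both.

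In signal, the near-threshold lines had a median of 71.2 (quartiles 60.3 and 80.3, range 2.11 to 210.5), against quartiles of 95 and 183 at 830 or above and a median of 25.3 under 540. Their intervals were 420 bp wide in 97.5% of cases, against 65.0% and 99.8%. A signal under 40 was found in 228 members (10.8%), and 193 of these (84.6%) had a stronger line of score 540 or more within 500 bp, against 4.26% of the other members. The promoter share was 21.1% among these 228 and 26.3% among the other 1880. When every line of 540 or above with a stronger such line within 500 bp was left out, 1835 members remained and the promoter odds ratios were 0.517 and 1.49.

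Few members overlapped a strong peak, with 57 intervals (2.7%) that overlapped an interval at 830 or above. The median distance from a member to the nearest summit at 830 or above was 5713 bp (quartiles 1790 and 18790). A summit at 830 or above lay within 1000 bp of 263 members (12.5%). Such distances were not taken for lines under 540 or for other genome positions, so nearness to strong peaks was not tested. Among the members themselves, 221 neighbouring pairs lay within 500 bp of each other. On the autosomes, 56.8% of members were in the middle 50% of the chromosome, against 61.1% at 830 or above and 50.5% under 540.

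The 15 members with the highest signal that overlapped no interval at 830 or above came from several kinds of location. The 2 highest had a joint signal of 164. One lay between genes, nearest to rol-1 on chromosome II, with own signals of 61.7 and 79.9 and a score of 1000 in both replicates' lists. The other lay just downstream of the start of pigq-1, a gene for GPI anchor synthesis, with own signals of 53.5 and 66.1 and scores of 1000 and 680. Both regions scored above 540 in each library. So did the summit in a coding exon of tag-10 (joint signal 137), with own signals of 16.7 and 94.0 and scores of 592 and 1000. The summit near nhr-3, a nuclear receptor gene, had own signals of 61.0 and 31.5 and scores of 796 and 337. The summit at −978 bp from the start of T19C4.24 (127) had own scores of 162 and 1000, and that in best-7, of the bestrophin channel family, had 589 and 72. The promoter of vha-2, for a V-ATPase subunit, had own signals of 79.8 and 52 and scores of 1000 and 546, and that of mdt-1.2, for a Mediator subunit, was matched only in replicate 2, at a score of 650. The coding exon of spp-1, for a saposin-like antimicrobial protein, was matched only in replicate 1, at 879. The remaining members of this group were near col-60, in T24H7.2, H10E21.4, W06H8.6 and the SUMO protease gene ulp-4, and upstream of R04E5.8, with joint signals from 116 to 135.

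The values at the edges of the score range are tied, so the lines named here are examples from each tie. Of the 11 members at the lowest score, 540, 2 lay in coding exons of eef-2, for the translation elongation factor that moves the ribosome, with signals of 49.6 and 12.6. Just under 540, an intron summit of smk-1 had a signal of 105 and a promoter summit of npr-23 one of 64.5. Of the 5 members at the highest score, 1 was the summit near col-60 (135) and another a coding exon summit of T25G12.3 (65.2). At 830, an intron summit of T25G12.3 had a signal of 20.5 and a promoter summit of nhr-57 one of 81.1.

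Some long genes held several members. These were chosen after their values were seen. The gene vhp-1, for a MAP kinase phosphatase, is 17554 bp long and held 7 near-threshold summits, 3 at 830 or above and 20 under 540. The heterochronic gene lin-14 (20312 bp) held 6, 3 and 30, and lit-1, for a Nemo-like kinase, held 5, 9 and 24. The gene mtm-3, of 10489 bp, held 5 near-threshold summits and 0 at 830 or above. Near the genes of the transgene itself, T26A8.4 had no summit of any score within 10 kb, and unc-119 had 0 near-threshold summits, 0 at 830 or above and 2 under 540, with a highest score of 80.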

How the data were processed

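Peak lists of GFP ChIP-seq from 2 libraries were used on assembly ce11, per the labels. The authors deposited 8 lists, with an integer score, a peak signal (also a score, of unknown scale), a q-value as −log10, a summit offset in bases and, in ranked lists, the IDR as −log10. The aligner and peak caller remain not given in the sources used here. The joint lists were made from both libraries, per the submitters' file listings; 16 further per-input columns that no label ties to a library were not used.

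The joint ranked list that contains the thresholded list was found by line comparison. Summits were placed on WBcel235 with Ensembl release 115, each base having 1 location (promoter, then noncoding gene, 5′ and 3′ untranslated region, coding exon, intron, intergenic). Small RNA genes were counted within 200 bp, and motifs within 100 bp of the summit against 498866 genome windows. Names of tRNA genes came from RefSeq (612 matched).

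Shares were compared by two-sided Fisher's exact tests, adjusted by the Benjamini-Hochberg method within each family (location, chromosome, noncoding genes, motifs, motifs in promoter summits) at 0.05, with Wilson and Woolf 95% intervals that cover counting error only. The scripts were tested on simulated data. The members, the 29 gene lists and the 14 motifs were chosen with earlier results of these data known. The rule for named genes took unc-119, T26A8.4, the 15 highest-signal members clear of intervals at 830 or above, the 2 strongest near-threshold promoter members of each list and the 2 strongest genes of each small RNA type, without a summit at 830 or above. Alternatives were 12 planned and 2 added after seeing the data. Calculations were made with SciPy 1.17.1, pandas 2.3.3, NumPy 2.4.6 and Matplotlib 3.10.9 under Python 3.11.15.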

Additional observations from a re-analysis of the deposited data

How the results depend on the processing

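The promoter differences and those of the pooled class of tRNA, snoRNA and snRNA genes kept their direction and their side of the threshold under every alternative run for them. The promoter odds ratios ranged from 0.443 to 0.648 against lines at 830 or above and from 1.26 to 1.78 against lines under 540. The GAGA odds ratio against windows at 830 or above, 0.513 as reported, did not pass in the list of either replicate alone (0.831 to 0.862) or in promoter summits only (0.596), and against windows under 540 it did not pass in promoter summits only (1.52). The odds ratio of X against lines under 540 did not pass in the upper part of the score range (1.28) or in the list of replicate 1 alone, with a range of 1.13 to 1.3 over the replicates' own lists. Median GC was 43.6% within 50 bp of the summit and 41.3% to 42.3% in the replicates' own lists. The count of genes with a near-threshold promoter summit was 584 as reported, 260 in the upper and 331 in the lower part of the score range, 354 with a window of 500 bp upstream to 100 bp downstream and 924 with one of 2000 bp upstream. Among single locations, gene types and motifs, the noncoding gene odds ratio against lines under 540 was 1.32 in the list of replicate 2 alone, and the miRNA one was 0.996 with the summit inside the gene. The snoRNA odds ratio against lines under 540, which did not pass as reported, was under 1, without passing, in the other joint list and inside the gene. A further 31 such values no longer passed, 9 newly passed and 384 did neither. The causes were not tested, and each part of the score range holds fewer lines than the whole range. Leaving out the 31 lines at 830 or above that the thresholded list lacks, and lower lines within 1000 bp of them, was chosen after seeing the data and gave promoter odds ratios of 0.503 and 1.44. No paired analysis was possible because the series has 1 group. Read depth is not in the peak lists, and with 2 libraries the spread between worms is not measured by these tests.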
